A study of Caenorhabditis elegans with 42 samples.

Results

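The apical matrix genes described here are 9 genes of Caenorhabditis elegans, let-653, noah-1, noah-2, fbn-1, sym-1, lpr-1, lpr-3, lpr-4 and dyf-7. They were taken by name, and chosen in part by the measured L4 means, because let-653 RNA was higher at L4 in every mutant strain of the study. Their L4 values are therefore a description, with no test. The deposited tables list them as 11 transcripts, of 34873 transcripts of 30304 genes. let-653 has the transcripts C29E6.1a and C29E6.1b, and noah-1 has C34G6.6a and C34G6.6b. The other genes have 1 transcript each, F52B11.3 for noah-2, ZK783.1 for fbn-1, C44H4.3 for sym-1, Y65B4BR.2 for lpr-1, W04G3.8 for lpr-3, W04G3.3 for lpr-4 and C43C3.3 for dyf-7.

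The epithelia of the worm secrete an apical extracellular matrix toward the outside and into their tubes. A transient form of it, the precuticle, precedes each new collagen cuticle and is renewed with each moult. It is rich in zona pellucida (ZP) domain proteins, which assemble into fibrils, together with leucine-rich repeat proteins and lipocalins, small secreted proteins that carry lipids. Embryos depend on this matrix when they elongate, and narrow tubes such as the excretory duct depend on it to keep their lumen.

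The study asked how development changes when adenosine-to-inosine RNA editing is disturbed. ADR-2 is the editing deaminase, and ADR-1 is a relative that binds double-stranded RNA and regulates ADR-2. BB19 carries the allele tm668 and BB2 the allele gv6 of adr-1. RB886 carries the allele ok735 and BB3 the allele gv42 of adr-2, and N2 is the wildtype. The labels give 3 BB19, 2 BB2, 3 RB886, 3 BB3 and 4 N2 libraries of embryos, and 3 libraries of each of these strains at L4, the last larval stage. The BB2 embryo means appear to rest on 3 libraries, since the value of 1 read took 3 sizes among their lowest means, and in every other group as many sizes as the labels give libraries. All were grown at 20 °C on OP50 bacteria, and RNA came from whole animals. Young adults of HH76 and HH134 carry an extrachromosomal array with FLAG-tagged adr-1, which may be lost from some cells. Both carry adr-1(tm668), and HH134 also adr-2(ok735). BB21, with adr-1(tm668) and adr-2(ok735) and no tag, was the control of the pull-down, with 2 pulled-down and 2 input libraries of each of these strains. HH76 thus differs from its control in adr-2 as well as in the tag.

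The expression values are the authors' strain means of normalised counts. Each table has its own scaling, so N2 has a slightly different mean in each comparison and is given as a range. Without values per library no SD can be given. The strain means summed to between 14175075.5 and 17398074.9 normalised counts. Among transcripts with a mean of at least 100 and a log2 change of at least 0.1, the z-value behind the deposited p was, as a median, 0.921 to 1.133 times that of counting error alone. The highest of these, in BB2 embryos, was 1.003 when 3 libraries were taken. The authors' p-values thus hold little of the spread between libraries, and the difference between the 2 alleles of a gene is set beside each change. Some library titles share a date or a set name between strains, which means cannot separate. RNA of adr-1 at L4 was at 0.309 of N2 in BB19, but at 0.537 in the libraries labelled BB2, where adr-2 was at 0.638 of N2. In BB2 at L4, directions are those of the libraries so labelled.

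At L4, RNA of 8 of the 9 genes was higher in all 4 mutant strains, by 1.54-fold to 4.94-fold, and dyf-7 was the exception. Of 11 member transcripts, 10 were at least 1.5-fold higher in all 4 strains, where 3.08% of 28877 transcripts were. At the authors' adjusted p under 0.05, 10 were called higher in each strain, beside 18.6% of all transcripts tested in BB19, 18% in BB2, 10.9% in RB886 and 9.07% in BB3. No member was called lower in BB19 or RB886 and 1, dyf-7, in BB2 and in BB3, beside 15.2% in BB19, 18.4% in BB2, 7.98% in RB886 and 8.75% in BB3. The choice of genes used this contrast, so nothing is read from these counts.

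**Figure D1:**
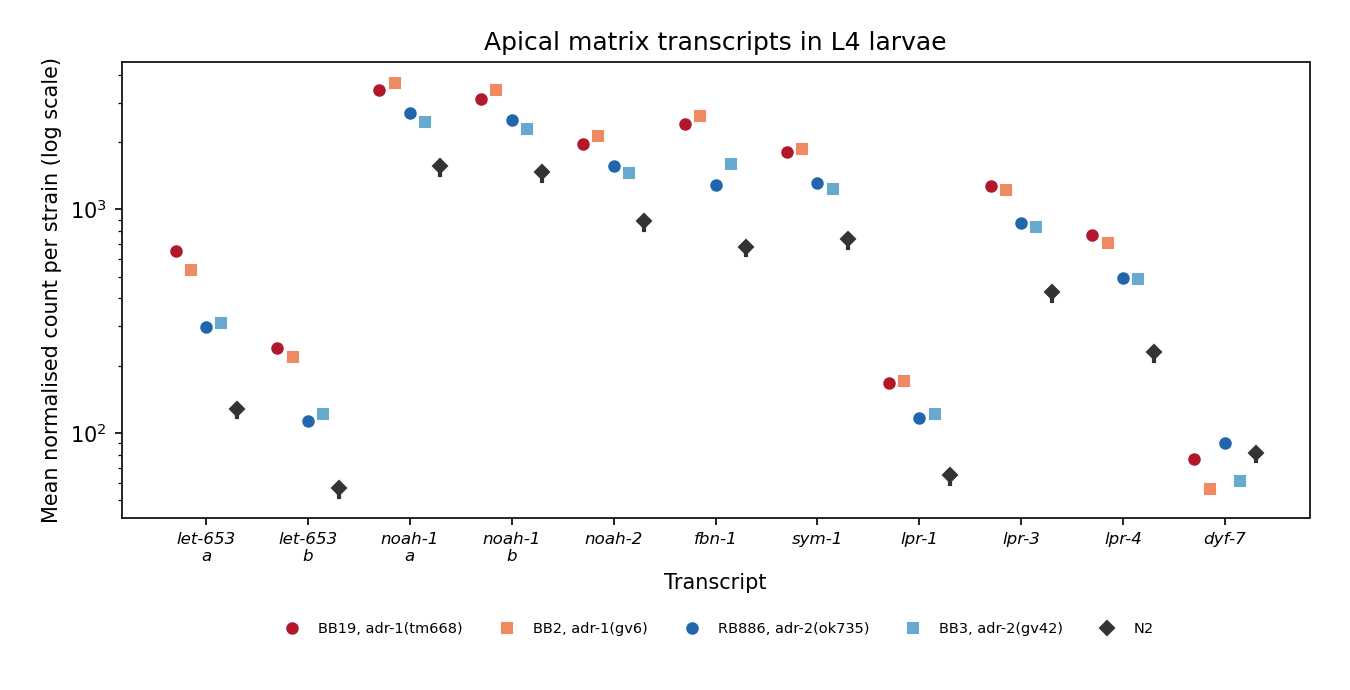
Mean normalised counts (log scale) of the 11 transcripts at L4, with each mutant strain as a point and N2 as a diamond at the median of its 4 tables with a bar over their range. Except for dyf-7, every mutant mean lies above the N2 range, as for let-653 C29E6.1a with 298 to 648 in the mutants and 118 to 131 in N2.

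The largest ratio to N2 at L4 in every strain was that of let-653 C29E6.1a. The gene encodes a ZP protein that keeps the excretory duct and pore from losing their lumen. C29E6.1a had means of 648 in BB19, 537 in BB2, 298 in RB886 and 310 in BB3, against 118 to 131 in N2. These are 4.94, 4.57, 2.33 and 2.40 times the N2 means, in that order, with 95% counting intervals of 4.43 to 5.50, 4.07 to 5.12, 2.07 to 2.63 and 2.13 to 2.70. Such intervals cover counting error only. The intervals of both adr-1 strains lie above those of both adr-2 strains, which describes the chosen means and is no test. Ranked by this ratio among transcripts with a mean of at least 100, C29E6.1a was number 6 of 14712 in BB19, 2 of 14144 in BB2, 5 of 14496 in RB886 and 23 of 14634 in BB3.

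The transcripts of let-653 come from 1 gene and are not independent, and the division of reads between them is not given in the sources used. C29E6.1b had 240, 218, 113 and 122 in BB19, BB2, RB886 and BB3, against 51.8 to 57.8 in N2. The mean of C29E6.1b over that of C29E6.1a at L4 was 0.370 in BB19, 0.406 in BB2, 0.379 in RB886 and 0.394 in BB3, against 0.441 in N2. In embryos this share was 0.375, 0.386, 0.360 and 0.372 in the same mutants, against 0.370 in N2. For noah-1 the share of C34G6.6b over C34G6.6a at L4 was 0.918 to 0.933 in the mutants, against 0.938 in N2.

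The fibrillin-like fbn-1, whose product anchors the embryonic sheath during elongation, was next to let-653 in BB19, BB2 and BB3, and behind lpr-4 and lpr-3 in RB886. Its means at L4 were 2410 in BB19, 2620 in BB2, 1290 in RB886 and 1600 in BB3, against 624 to 696 in N2. The ratios to N2 were 3.47, 4.20, 1.90 and 2.33. Both pairs of alleles differed by more than is typical, by 0.28 (adr-1) and 0.30 (adr-2) on the log2 scale. Over all transcripts with a mean of at least 100 in both tables, the median difference between alleles at L4 was 0.16 for adr-1 and 0.10 for adr-2, and the 95th percentile was 0.61 and 0.44.

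The ZP proteins NOAH-1 and NOAH-2 line the embryonic epidermis and link the outer matrix to it. The noah-1 transcript C34G6.6a had 3400 in BB19, 3680 in BB2, 2690 in RB886 and 2470 in BB3, against 1430 to 1600 in N2, or 2.13, 2.57, 1.73 and 1.56 times N2. noah-2 had 1960, 2130, 1560 and 1460 in the same strains, against 812 to 905 in N2, or 2.17, 2.62, 1.77 and 1.63 times N2. In each strain the ratios of noah-1 and noah-2, genes on different chromosomes, were close to each other and a little higher for noah-2. sym-1, a gene for a secreted leucine-rich repeat protein of the embryonic epidermis, had 1810, 1860, 1310 and 1230, against 674 to 752 in N2. Its ratios were 2.41, 2.76, 1.79 and 1.66.

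Among the lipocalins, lpr-1 is needed for a connected excretory duct and pore, and lpr-3 encodes a component of the precuticle. lpr-1 had 167 in BB19, 171 in BB2, 117 in RB886 and 121 in BB3, against 59.3 to 66.1 in N2. Its ratios were 2.53, 2.88, 1.83 and 1.85. lpr-3 had 1270, 1220, 868 and 837, against 391 to 436 in N2, or 2.92, 3.11, 2.05 and 1.95 times N2. lpr-4 had 769, 708, 492 and 488, against 210 to 234 in N2, and its ratios of 3.28, 3.37, 2.16 and 2.11 were the largest of the lipocalins in every strain. No mutant mean of these 3 genes came within the N2 range.

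The product of dyf-7, also a ZP protein, anchors the dendrite tips of sensory neurons while their cell bodies move away in the embryo. Its means at L4 were 76.4 in BB19, 55.9 in BB2, 90.5 in RB886 and 60.7 in BB3, against 74.9 to 83.5 in N2. The ratios were 0.914, 0.746, 1.12 and 0.738, so the alleles of adr-2 stood on opposite sides of N2. They differed by 0.60 on the log2 scale, against a median of 0.15 and a 95th percentile of 0.61 over 2044 transcripts of like level, with means of 50 to 100 in both tables.

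**Figure D2:**
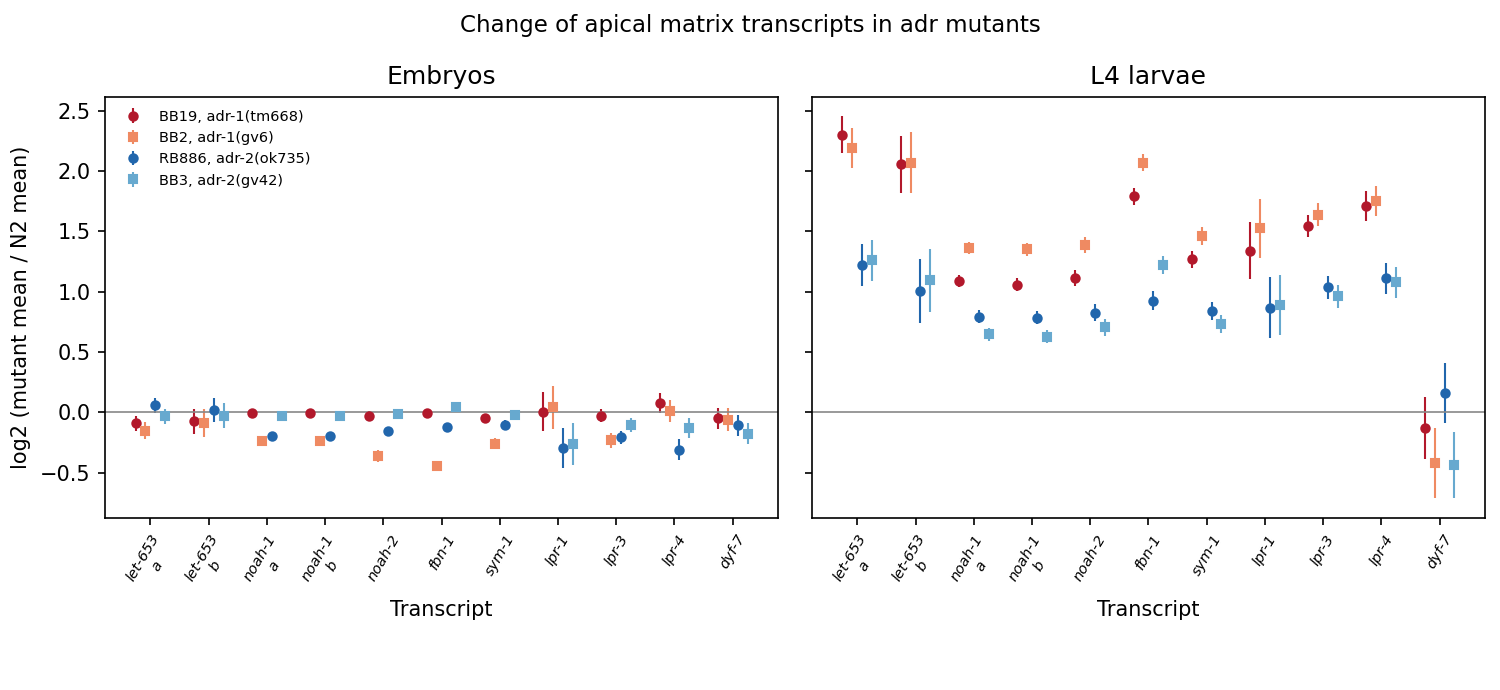
log2 of the mutant mean over the N2 mean for the 11 transcripts in embryos (left) and at L4 (right), with bars for 95% intervals of counting error only. In embryos all points lie between -0.45 and 0.08, and at L4 all but those of dyf-7 lie between 0.63 and 2.30.

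The L4 ratios of the adr-1 and adr-2 strains are set side by side as a description, since the choice of genes used these means. In 10 of the 11 transcripts both adr-1 strains had a larger ratio to N2 than both adr-2 strains, and dyf-7 alone overlapped. Of all 28877 transcripts tested at L4 in every strain, 16.3% were ordered this way, and nothing is read from this count. Without BB2, the ratio in BB19 was also above both adr-2 strains in 10 of the 11. The mean log2 change of let-653 C29E6.1a was 2.25 in the adr-1 strains and 1.24 in the adr-2 strains, a difference of 1.01. That of fbn-1 was 1.93 in the adr-1 strains and 1.07 in the adr-2 strains, a difference of 0.86. For noah-1 C34G6.6a the means were 1.22 and 0.72, a difference of 0.50, which is larger than its allele differences of 0.27 (adr-1) and 0.15 (adr-2). The lipocalins lay between, with differences of 0.55 for lpr-1, 0.59 for lpr-3 and 0.64 for lpr-4. With strain means alone the difference between adr-1 and adr-2 strains had no test.

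**Figure D3:**
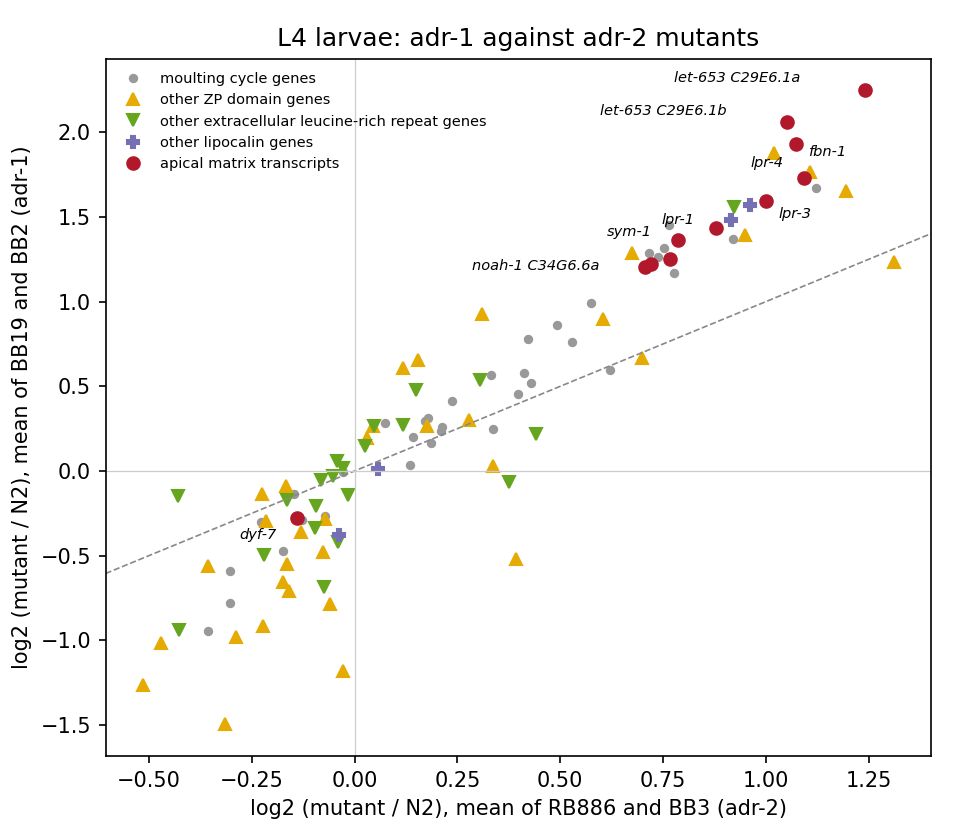
Mean log2 change at L4 in the adr-1 strains BB19 and BB2 (vertical) against that in the adr-2 strains RB886 and BB3 (horizontal), for the 11 apical matrix transcripts and 4 lists of related genes, 1 transcript per gene; the dashed line marks equal change. All apical matrix transcripts but dyf-7 lie above the line, with noah-1 C34G6.6a at 1.22 and 0.72 and let-653 C29E6.1a at 2.25 and 1.24.

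Other genes of the same protein families did not share one direction at L4. Of 38 transcripts of 34 other ZP domain genes, 8 were called higher in BB19, 11 in BB2, 10 in RB886 and 9 in BB3, and 14, 12, 4 and 7 lower in the same strains. The median log2 change over these genes was -0.18, 0.08, -0.02 and 0.06 in BB19, BB2, RB886 and BB3, beside medians over all transcripts of 0.02, -0.01, 0.01 and 0.00. The 11 member transcripts had medians of 1.32, 1.51, 0.86 and 0.88. Of the 34 other ZP domain genes, 6 were called higher in all 4 strains at L4 and 0 lower in all 4. Named after their values were seen, cutl-9 had ratios of 3.09, 3.73, 2.05 and 2.27 in BB19, BB2, RB886 and BB3. Those of cutl-10 were 2.83, 3.49, 1.98 and 2.65, and those of cutl-6 3.68, 3.67, 1.82 and 2.26. Among 31 transcripts of 21 other extracellular leucine-rich repeat genes 9, 10, 7 and 3 were higher and 5, 6, 6 and 2 lower, with medians of -0.04, -0.04, 0.07 and -0.03. Genes of matrix partners and epidermal attachment, 11 with 50 transcripts, had medians of -0.05, 0.08, 0.10 and -0.07.

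The closest relatives in position also showed the pattern. The reference annotation, used for gene order only, places lpr-3, lpr-6, lpr-5 and lpr-4 next to each other with no other coding gene between neighbours, and let-4 next to sym-1. Named here after their values were seen, lpr-5 had L4 means of 1130 in BB19, 1130 in BB2, 808 in RB886 and 771 in BB3, against 384 to 428 in N2. lpr-6 had 1080, 1160, 757 and 765, against 358 to 399 in N2. let-4, an organiser of the apical matrix with leucine-rich repeats, had 437, 403, 260 and 299, against 135 to 150 in N2. Of the lipocalins outside this cluster, lpr-1 was higher in every strain, as given above. The log2 changes of lpr-2 lay between -0.01 and 0.09 and those of lpr-7 between -0.80 and 0.21.

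Genes of the moulting cycle were called in both directions at L4, more of them higher. Of 35 such genes, 19 were called higher in BB19, 25 in BB2, 25 in RB886 and 23 in BB3, and 13, 5, 2 and 5 lower. In all 4 strains, 18 were called higher and 2, ptr-23 and mlt-7, lower. Their medians were 0.17, 0.61, 0.45 and 0.16 on the log2 scale. Over all transcripts 18.6%, 18%, 10.9% and 9.07% were called higher in BB19, BB2, RB886 and BB3. The lower shares were 15.2%, 18.4%, 7.98% and 8.75%. No share at like level is given, so no excess of this list is read from its counts. The summed level of this list was 60749.7 to 79071.0 in the mutants, against 48032.9 to 53557.6 in N2. Named after its values were seen, dpy-10, a cuticle collagen gene, had ratios of 2.84, 3.57, 2.15 and 2.21 in BB19, BB2, RB886 and BB3. The gene of a peroxidase of the moult, mlt-7, was at 0.616, 0.548, 0.708 and 0.928. The adult collagen gene col-19 had 2010 in BB19, 406 in BB2, 766 in RB886 and 2050 in BB3, against 1630 to 1820 in N2. The strains were thus split on this marker. Of the 6 genes listed for the adult epidermis, col-19 among them, bli-1 and bli-2 were called higher in all 4 strains, and col-159 and col-12 lower. bli-1 and bli-2 are also in the moulting list, and whether the listed genes are confined to adults was not tested. The part of the moulting cycle in the members' change was not tested.

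Markers of the cells that secrete this matrix were also examined at L4. The summed level of 6 epidermal genes was 8304.6 to 11238.2 in the mutants, against 6619.0 to 7387.0 in N2, and of its 6 genes 3 were called higher in each strain and 1, 2, 1 and 1 lower in BB19, BB2, RB886 and BB3. The median log2 change of this list was 0.26, 0.25, 0.25 and 0.02 in the same strains. dpy-7, bli-1 and rol-6 of this list are also in the moulting list. dpy-7 and bli-1 were called higher in all 4 strains, and no gene of the list was called lower in all 4. The epidermal transcription factor gene lin-26 was at 0.998, 0.902, 0.993 and 0.898 of N2. The summed level of 3 seam genes, ceh-16, nhr-73 and grd-10, was 148.4 to 396.9, against 89.9 to 100.2 in N2. That of 4 vulva genes was 787.6 to 1010.9, against 586.5 to 653.7 in N2. Of the vulva genes only cdh-3 was called higher, in each strain. For aqp-8, lin-48 and egl-18, listed for the excretory duct and pore, the sum was 324.2 to 601.8, against 297.6 to 333.5 in N2. In RB886 it was 324.2 against 323.24, with a median log2 change of -0.17 and 1 gene called higher and 1 lower. The sum of 4 genes of glia and sensory openings was 3240.0 to 3678.0, against 2828.0 to 3156.0 in N2. Of these, 2, 3, 3 and 2 were called higher in BB19, BB2, RB886 and BB3, and 0, 1, 0 and 1 lower. Only ptr-10 was called higher in all 4 strains, and lin-26 is shared with the epidermal list. Lists of other tissues were summed too. Body muscle genes were above N2 in each strain, at 91771 to 102892 against 80644.6 to 89915. Intestine genes had 22798 to 25734 against 21081 to 23506, and neuron genes 2776.1 to 3260.3 against 2755.3 to 3081.5. Germline and oocyte genes had 7897 to 9844 against 8860 to 9890, and sperm genes 2806 to 3576 against 3161 to 3527. No transcript of these lists was at 0 in both strains of a comparison. More cells of a type and more RNA per cell cannot be told apart in whole animals, and the part of these cell types in the result was not tested.

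In embryos the same genes lay near or below N2, with no member 1.5-fold from N2 in any strain. The embryo libraries were not used to choose the genes. By the authors' deposited values, 3 of 11 transcripts were called lower in BB19, 7 in BB2, 8 in RB886 and 5 in BB3 at an adjusted p under 0.05, and none higher. The lower share of all transcripts was 17.2% in BB19, 19.6% in BB2, 10.1% in RB886 and 5.92% in BB3, and the higher share 15.2%, 19.7%, 10.2% and 11.9%. These shares are over transcripts of all levels, of which 13477 to 13896 had a mean of at least 100, as all members had. Abundant RNAs are called at smaller changes, and no share at like level is given, so no excess is read from these counts. The members' median log2 change was -0.03 in BB19, -0.23 in BB2, -0.16 in RB886 and -0.03 in BB3, beside -0.01, 0.03, 0.01 and 0.04 over all transcripts. Over transcripts with a mean of at least 100 the medians were -0.06, -0.07, -0.01 and 0.01, so in BB19 the members' median lay above that value, at 0.029 when centred on it. No member transcript was called lower in all 4 strains.

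The largest embryonic difference was that of fbn-1 in BB2. fbn-1 had 7580 in BB19, 5800 in BB2, 7340 in RB886 and 7860 in BB3, against 7620 to 7990 in N2. Its ratio in BB2 was 0.734, with an adjusted p = 1.16e-237 in the authors' deposited table. In BB19, with the other adr-1 allele, it was 0.994, with an adjusted p = 0.308 in the authors' deposited table. The alleles differed by 0.44 on the log2 scale, above the 95th percentile of 0.40 over all transcripts with a mean of at least 100. In RB886 the ratio was 0.918, with an adjusted p = 1.37e-19 in the authors' deposited table, and in BB3 it was 1.03.

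In the other epidermal matrix genes BB2 was also lowest and RB886 next. The RNA of noah-2 had 3080 in BB19, 2530 in BB2, 2950 in RB886 and 3120 in BB3, against 3140 to 3290 in N2. It was lower in BB2 at 0.777 times N2 (adjusted p = 2.06e-70) and in RB886 at 0.897 (adjusted p = 1.76e-13), both in the authors' deposited table. In BB19 it was called lower at 0.980, with an adjusted p = 0.0118 in the authors' deposited table, and in BB3 it stood at 0.993. noah-1 C34G6.6a was at 0.995, 0.847, 0.871 and 0.981 of N2 in BB19, BB2, RB886 and BB3. sym-1 was at 0.965, 0.834, 0.929 and 0.983. Centred on the median of all transcripts with a mean of at least 100, the calls of noah-2 and sym-1 in BB19 turned to the other side of N2, at 0.029 and 0.0073 on the log2 scale. Both alleles of adr-1 thus differed by 0.21 to 0.44 in these 4 genes, against a median of 0.10 over all transcripts with a mean of at least 100. For abundant RNAs in BB3 embryos the deposited p is not centred on a ratio of 1. There the 179 transcripts with a mean of at least 1000 and a p of at least 0.9 had a median ratio of 1.017. In embryos of BB19, BB2 and RB886 such medians were nearer to 1, at 1.004, 0.9971 and 1.003. The call of noah-1 C34G6.6a in BB3, with an adjusted p = 0.00104 in the authors' deposited table, rests on a ratio of 0.981.

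Among the lipocalins, lpr-1 and lpr-4 stood below N2 in both adr-2 strains and near N2 in both adr-1 strains, a difference that had no test. The RNA of lpr-4 had 730 in BB19, 722 in BB2, 585 in RB886 and 631 in BB3, against 692 to 726 in N2. It was lower in RB886 at 0.807 (adjusted p = 8.38e-10) and in BB3 at 0.912 (adjusted p = 0.0345), both in the authors' deposited table. lpr-1 had 179, 191, 153 and 149, against 179 to 188 in N2, and was lower in RB886 at 0.815, with an adjusted p = 0.00651 in the authors' deposited table. Its ratio in BB3 was nearly the same, 0.833, with an adjusted p of 0.191 in the authors' deposited table. Neither lpr-1 nor lpr-4 was called in an adr-1 strain. The neighbours lpr-5 and lpr-6 were at 0.848 and 0.794 in RB886 and at 0.924 and 0.888 in BB3, and between 0.999 and 1.05 in the adr-1 strains. lpr-3 departs from this, with 1510, 1360, 1400 and 1430, against 1540 to 1620 in N2, and a ratio of 0.851 in BB2.

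let-653, with the largest L4 ratios, lay close to N2 in embryos. C29E6.1a had 1140 in BB19, 1140 in BB2, 1330 in RB886 and 1190 in BB3, against 1220 to 1280 in N2. It was called lower in both adr-1 strains, where it fell by 6.24% in BB19 (adjusted p = 0.0201) and fell by 9.96% in BB2 (adjusted p = 1.07e-06), both in the authors' deposited table. In the adr-2 strains the ratio was 1.04 in RB886 and 0.978 in BB3. The RNA of dyf-7 had 602, 620, 607 and 552, against 624 to 654 in N2. It was called lower in BB3 at 0.885, with an adjusted p = 0.0139 in the authors' deposited table.

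Other ZP domain genes were called in both directions in embryos of BB2, RB886 and BB3, and only higher in BB19. By the authors' deposited values, 16 of the 38 transcripts of other ZP domain genes were called higher in BB19, 20 in BB2, 7 in RB886 and 9 in BB3, and 0, 7, 13 and 5 lower. cutl-5, a cuticlin-like gene, had 85.1 in BB19, 84.7 in BB2, 59.5 in RB886 and 66.2 in BB3, against 38.4 to 40.2 in N2. ram-5, a ZP gene of the male tail rays, had 63.7, 65.5, 55.4 and 46.1, against 31.3 to 32.8 in N2, and cutl-4 had 50.6, 55.9, 36.9 and 34.4, against 23.7 to 24.8 in N2. These 3 genes were called higher in all 4 strains. At L4 the same 3 genes were called lower in BB19, BB2 and BB3, and none of them was called in RB886. Their L4 ratios to N2 in BB19, BB2, RB886 and BB3 were 0.266, 0.472, 0.883 and 0.732 for cutl-5. They were 0.478, 0.510, 0.953 and 0.547 for ram-5, and 0.367, 0.698, 1.06 and 0.635 for cutl-4.

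Of the 11 genes of matrix partners and epidermal attachment, 8, 6, 3 and 8 were called higher in embryos of BB19, BB2, RB886 and BB3, and 1, 5, 4 and 2 lower. Over their 50 transcripts, in which genes with many isoforms count several times, the numbers were 44, 32, 21 and 44 higher and 1, 14, 14 and 5 lower. mec-1, a matrix protein of touch receptor neurons, was at 1.55, 1.41, 1.20 and 1.32 times N2. pat-12 and let-805, which attach muscle to the epidermis, were at 1.35, 1.25, 1.08 and 1.24 for pat-12 and at 1.31, 1.08, 1.05 and 1.20 for let-805. Of the 35 moulting cycle genes 14, 7, 5 and 3 were higher and 6, 16, 14 and 8 lower. mlt-7 was at 2.04, 1.96, 1.53 and 1.65 and the transcription factor gene fkh-9 at 1.33, 1.57, 1.21 and 1.35, and dpy-3 was called lower at 0.978, 0.746, 0.852 and 0.867. Among 31 leucine-rich repeat transcripts 6, 13, 3 and 3 were higher and 5, 6, 6 and 4 lower, with lron-2 higher in every strain and pan-1 lower, at 0.907 to 0.936. Germline and oocyte genes, as a marker of embryonic content, had summed levels of 3469.0 in BB19, 3776.0 in BB2, 6070.0 in RB886 and 4785.0 in BB3, against 4703.0 to 4931.0 in N2. Their part in the members' embryonic values was not tested.

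In N2 every member had a lower mean at L4 than in embryos. fbn-1 had 624 to 696 in L4 larvae against 7620 to 7990 in embryos, 10.9 to 12.8 times more in embryos. let-653 C29E6.1a was 9.31 to 10.8 times higher in embryos and dyf-7 7.47 to 8.73 times. noah-1, noah-2, lpr-3 and sym-1 lay between 3.42 and 4.57 times. lpr-1 had the smallest difference, with 59.3 to 66.1 in L4 larvae against 179 to 188 in embryos, 2.71 to 3.17 times. The tables of each stage were normalised separately, so these are values side by side with no test. In BB19 the L4 mean of lpr-1 was 167 against 179 in embryos, and that of lpr-4 was 769 against 730.

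**Figure D4:**
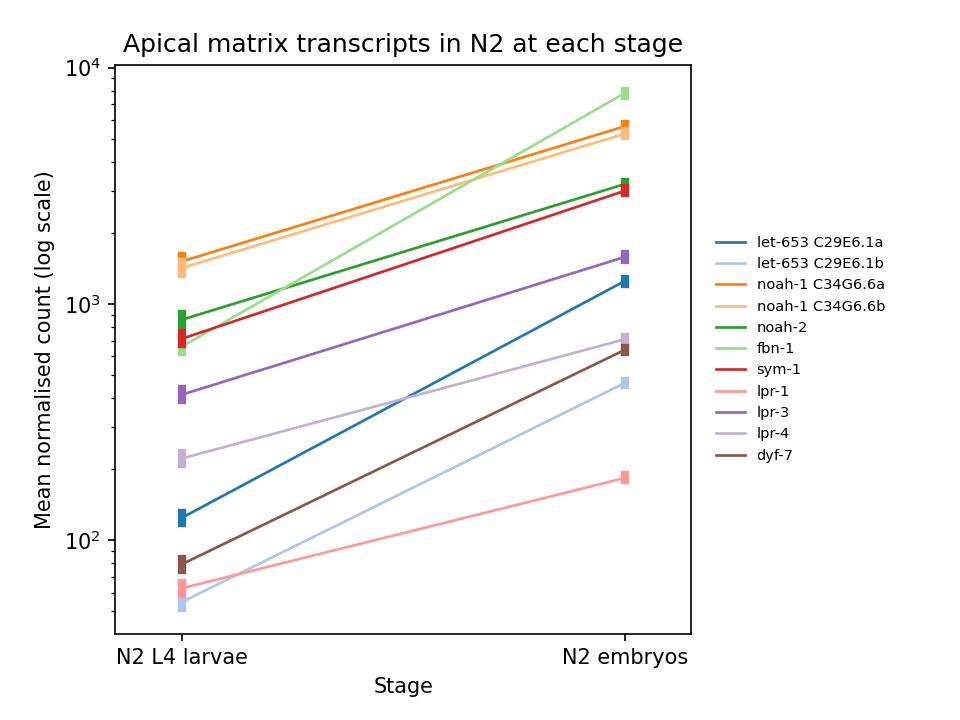
Mean normalised counts (log scale) of the 11 transcripts in N2 at L4 (left) and in embryos (right), with thick bars for the range over the 4 tables of a stage. Every line is higher in embryos, most steeply for fbn-1 with 624 to 696 at L4 and 7620 to 7990 in embryos.

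Counts are not divided by transcript length, so they do not rank the genes against each other.

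Genes whose 8 log2 changes ran closest to those of let-653 and noah-1 were taken from 11152 genes with a mean of at least 100 over the 16 means, by the root mean square difference. Nearest to let-653 was ugt-57, of the UDP-glucuronosyltransferase family, at 0.097. ptr-10, a Patched-related gene expressed in glia, followed at 0.17, then C45B11.6 (0.20), Y73E7A.8 (0.23) and cky-1 (0.24). ptr-10 had 543 in BB19, 520 in BB2, 230 in RB886 and 323 in BB3 at L4, against 109 to 122 in N2. Nearest to noah-1 were mlt-11, a protease inhibitor gene needed for the moult, at 0.079, C01F1.3 (0.088), C09F9.2 (0.089), C44H4.10 (0.098) and atf-2 (0.10). Of the members, noah-2 at 0.054 was nearer to noah-1 than any of these, and sym-1 stood at 0.088. The remaining member genes were farther from noah-1 than atf-2, the nearest of them lpr-1 at 0.19. Every other member gene was farther from let-653 than cky-1. The nearest of them was fbn-1 at 0.248, and noah-1 C34G6.6b stood at 0.60. dyf-7 was farthest from both, at 1.44 from let-653 and 0.89 from noah-1. All 8 changes share N2 libraries within a stage.

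**Figure D5:**
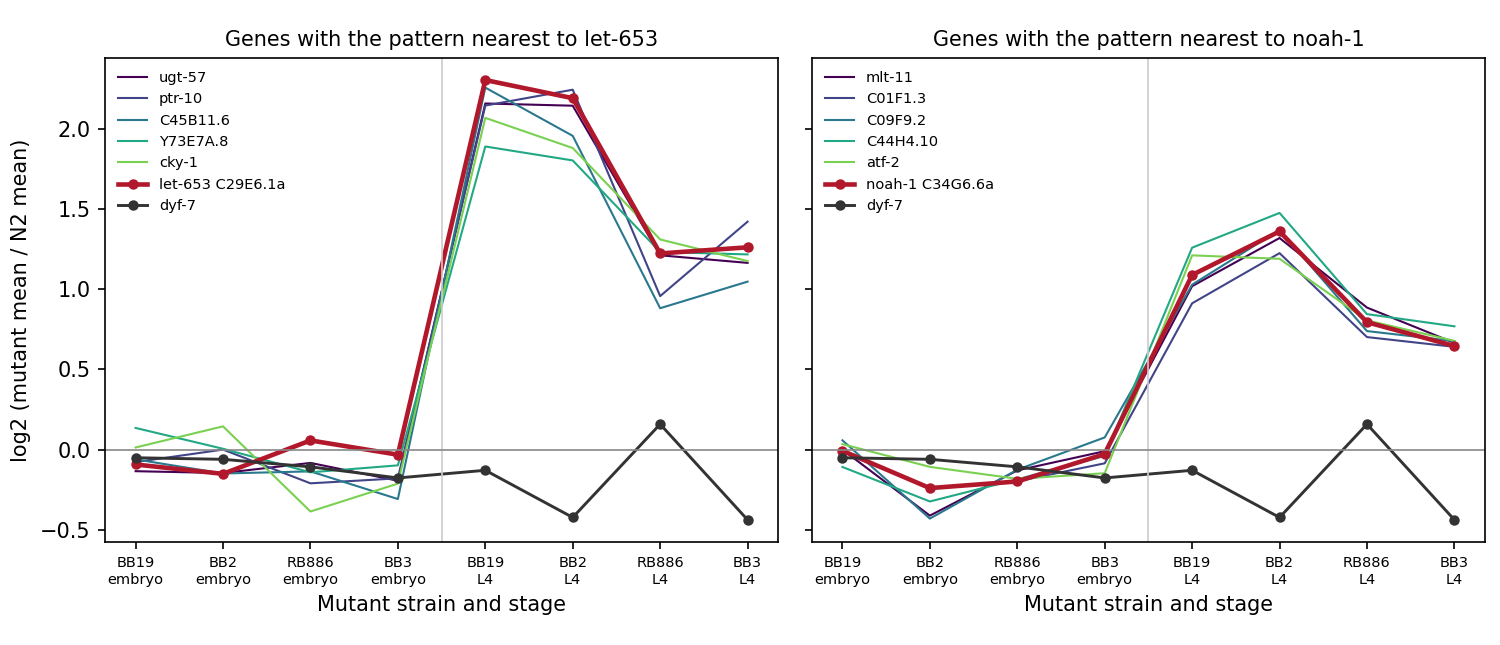
log2 change over N2 in each strain and stage, with lines joining the 8 values of a gene, for let-653 (left) and noah-1 (right) with the 5 genes nearest to each and dyf-7. In embryos the nearest genes lie between -0.43 and 0.14. At L4 all of them lie above 0, with ugt-57 at 2.16 and 2.14 in BB19 and BB2. Over both stages dyf-7 stays between -0.44 and 0.16.

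Binding of ADR-1 to the members' RNA was examined in young adults. The deposited lists hold genes the authors called bound in FLAG-tagged ADR-1 strains over the control, so a gene outside them has no value here. Of the 9 genes, 1 was in the HH76 list of 1237 genes, a number that is 4.08% of the 30304 genes of the expression tables. noah-2 had a log2 fold change of 0.99 with a standard error of 0.33 (adjusted p = 0.0321 in the authors' deposited table), number 1149 in order of size. None was in the list of HH134, which lacks adr-2, of 1215 genes or 4.01%. How many genes were tested for binding is not given in the sources used, and counts of 1 and 0 of 9 cannot be set apart from such shares. The neighbour gene lpr-5 was in the HH76 list at 1.82 with a standard error of 0.65 (adjusted p = 0.04997 in the authors' deposited table). The moult inhibitor gene mlt-11, near noah-1 in pattern, was there at 1.09, with an adjusted p = 0.00249 in the authors' deposited table. Neither lpr-5 nor mlt-11 was in the HH134 list. Other listed genes, named after their values were seen, were in both lists with larger values than mlt-11. The moulting cycle genes lin-42 and blmp-1 had 3.17 and 2.06 in HH76 and 3.25 and 2.00 in HH134. The ZP domain gene cutl-16 had 1.62 in HH76 and 1.56 in HH134.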

How the data were processed

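Embryos and L4 larvae of 4 mutant strains and N2 gave 30 libraries, and pulled-down or input RNA of young adults gave 12. Bowtie, DESeq and the build ce10 appear in the submitters' processing notes, with no version or role. Per the labels' protocols, libraries came from ribosome-depleted high molecular weight RNA with a stranded kit.

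The expression signal in the deposited tables is, per the file headers, the mean normalised count of a strain, written to 3 digits. The fold change is the authors' ratio of mutant to N2 mean, and the p-value and adjusted p-value are the authors' own. For the pull-down the authors deposited a log2 fold change, and its standard error and test statistic are score columns. How input entered is not stated there. RB886 is spelled RB668 in the tables.

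No count test was run, because the tables hold means. Calls use the authors' adjusted p under 0.05 over all transcripts, with no filter on low values, so all 11 transcripts were tested. log2 medians and pattern distances use a pseudocount of 1. Counting intervals (95%) take each mean times its number of libraries in the labels as reads, and depth per library is unknown. The members and 17 gene lists were chosen with earlier results of these data known. Of 150 list names 148 were found. Named genes are all members, up to 3 per family or moulting list called the same way in all 4 embryo comparisons, and the 5 nearest in pattern to let-653 and noah-1; others are said to be chosen after their values were seen or are markers of the lists. Gene order came from the WBcel235 annotation, whose build differs, so no coordinates and no sequences are given. Promoter sequence was not used here. Python 3.11.15 and pandas 2.3.3 were used, and the steps were tested on simulated data.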

Additional observations from a re-analysis of the deposited data

How the results depend on the processing

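No paired analysis was possible because the files hold strain means only, and for the same reason leaving out a library was not run. In the 4 L4 comparisons the numbers of members called stayed within 1.5 times under an adjusted p under 0.01, a mean of at least 10, 1 transcript per gene and a change of at least 1.5-fold. In embryos a 1.5-fold minimum left 0 members called in each of the 4 strains, and an adjusted p under 0.01 left 1 in BB19 and 3 in BB3. All 8 medians of the members moved by less than the median difference between alleles under the 5 settings tried. Those were a pseudocount of 10, centring on all transcripts with a mean of at least 100, 1 transcript per gene, a mean of at least 10 and, chosen after seeing the data, centring on abundant transcripts with a p near 1. Centring on all transcripts turned 2 called embryonic changes in BB19 to the other side of N2, noah-2 at 0.029 and sym-1 at 0.0073 on the log2 scale, because these RNAs fell less than the median. The members' median in BB19 embryos became 0.029, against -0.028 without centring. The median of all transcripts with a mean of at least 100 was at most 0.07 from 0. With an adjusted p under 0.01 or a log2 fold change of at least 1, 0 members remained in the HH76 list. The labels give 2 libraries of BB2 embryos, where the spacing of the lowest means gave 3, so counting intervals there may be too wide.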
